A study of Mus musculus with 14 samples.

Results

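The MED1 and MED12 peaks of Mediator ChIP-sequencing in mouse embryonic stem (ES) cells were compared with each other. All 762 MED1 peaks and all 1071 MED12 peaks were taken, 1833 of the 24416 peaks in the 8 peak lists of the series, with no further selection. The cells were those of the A6 clone, derived from the EBRTcH3 (EB3) line, which carried a Flag-tagged mouse Sim2 gene followed by an IRES and Venus under the hCMV*-1 promoter at the ROSA-TET locus. They were grown in serum and LIF on gelatin, and Sim2 was induced by 26 h without tetracycline. Each subunit had a single library from this single clone, both from the same cross-linked pellets, with the antibodies anti-Med1 (CRSP1/TRAP220) and anti-Med12, and both were compared with a common input. The remaining lists were of NANOG and OCT4 in clone A6, and of anti-FLAG ChIP for tagged SIM2 in A6, in the further clones B8 and C4, and in EB3, which lacks the Sim2 transgene. Mediator peaks of uninduced cells or of EB3 are not used here, so all values are those of cells that overexpressed Sim2. There were no replicates of either Mediator ChIP, and the intervals given are 95% Wilson intervals that cover counting error over sites only.

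Mediator is a large complex that carries signals from transcription factors bound at enhancers to RNA polymerase II at promoters. MED1 belongs to the core of the complex and is the subunit through which many nuclear receptors contact it. MED12 belongs to the kinase module, with CDK8, cyclin C and MED13, which binds the core reversibly. In ES cells both subunits are known to sit with OCT4, SOX2 and NANOG at enhancers, most densely at the long enhancer clusters of pluripotency genes.

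A MED1 peak and a MED12 peak were taken as shared when the gap between them was at most 100 bp. This was the case for 312 of the 762 MED1 peaks (40.9%, 37.5 to 44.5) and 311 of the 1071 MED12 peaks (29.0%, 26.4 to 31.8), since 1 MED12 peak met 2 MED1 peaks. They formed 311 shared sites, beside 450 MED1-only and 760 MED12-only sites, 1521 sites in all. A single-subunit site is one where the other list held no peak, which is not the same as the absence of the other subunit. Allowing a gap of 1000 bp raised the shared MED1 peaks to 345 and the shared MED12 peaks to 353.

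The genomic sequence of the strongest sites is given first, 200 bp of mm9 on the plus strand around the centre. Capitals mark matches to 11 short motifs of factors active in ES cells, listed further on. The first lines are the 3 shared sites with the lowest sum of ranks in both lists, with the strongest MED1-only and the strongest MED12-only site. The last lines were chosen after the motif counts were known. They show the strongest shared sites with an ESRRB motif, the strongest MED1-only site with NANOG and that motif, and an AT-rich MED1-only site of a stretch of chromosome 14 described below. Each site is named by the protein-coding gene with the nearest start.
Gm6994, shared, chr14:77919441-77919640: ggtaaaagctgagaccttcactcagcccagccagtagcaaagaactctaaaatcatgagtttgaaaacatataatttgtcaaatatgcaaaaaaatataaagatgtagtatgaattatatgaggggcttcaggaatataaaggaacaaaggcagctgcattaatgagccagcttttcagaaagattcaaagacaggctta
Jarid2, shared, chr13:44817540-44817739: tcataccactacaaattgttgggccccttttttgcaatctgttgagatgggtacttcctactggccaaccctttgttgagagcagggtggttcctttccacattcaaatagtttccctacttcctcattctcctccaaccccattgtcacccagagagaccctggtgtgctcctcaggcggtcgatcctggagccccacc
Klf4, shared, chr4:55488313-55488512: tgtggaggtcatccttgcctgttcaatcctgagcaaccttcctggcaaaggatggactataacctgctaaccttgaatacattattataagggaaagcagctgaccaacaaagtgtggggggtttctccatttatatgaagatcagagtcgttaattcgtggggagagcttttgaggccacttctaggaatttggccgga
Axin2, MED1-only, chr11:108873048-108873247: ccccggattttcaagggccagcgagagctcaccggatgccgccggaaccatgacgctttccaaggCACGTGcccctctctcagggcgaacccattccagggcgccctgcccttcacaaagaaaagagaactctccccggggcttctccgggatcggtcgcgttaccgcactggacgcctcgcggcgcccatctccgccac
Sox2, MED12-only, chr3:34656845-34657044: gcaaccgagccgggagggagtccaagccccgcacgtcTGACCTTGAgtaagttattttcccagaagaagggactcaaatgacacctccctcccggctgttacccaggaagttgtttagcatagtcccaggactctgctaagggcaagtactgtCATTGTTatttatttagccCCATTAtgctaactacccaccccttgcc
Inhbb, shared, chr1:121295411-121295610: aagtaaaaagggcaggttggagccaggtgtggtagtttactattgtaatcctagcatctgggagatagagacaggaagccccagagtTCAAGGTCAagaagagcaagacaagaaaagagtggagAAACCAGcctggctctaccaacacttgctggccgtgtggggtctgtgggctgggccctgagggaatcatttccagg
Esrrb, shared, chr12:87842616-87842815: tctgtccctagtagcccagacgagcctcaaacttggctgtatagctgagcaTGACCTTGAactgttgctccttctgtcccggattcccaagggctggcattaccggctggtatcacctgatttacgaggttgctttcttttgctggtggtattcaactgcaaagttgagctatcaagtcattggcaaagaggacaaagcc
Ppp2r2d, MED1-only, chr7:146048175-146048374: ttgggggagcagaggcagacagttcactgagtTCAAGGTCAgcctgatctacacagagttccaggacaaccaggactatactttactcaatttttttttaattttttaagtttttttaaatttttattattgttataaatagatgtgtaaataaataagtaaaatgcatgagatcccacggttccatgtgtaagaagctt
Pcdh17, MED1-only, chr14:85966251-85966450: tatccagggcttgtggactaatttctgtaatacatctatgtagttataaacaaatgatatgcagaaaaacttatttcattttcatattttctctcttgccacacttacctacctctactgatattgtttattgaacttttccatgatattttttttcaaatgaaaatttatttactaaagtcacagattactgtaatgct

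The 3 top shared sites held no match to any of the motifs, and their GC content ranged from 35.5% near Gm6994 to 51.5% near Jarid2. The Axin2 site, with 65.5% GC, held an E-box. The Sox2 site held matches to the ESRRB, SOX and homeodomain motifs. At the Pcdh17 site GC was 28%, and the nearest protein-coding start was 1122981 bp away.

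The strongest MED12 peaks were shared more often than the strongest MED1 peaks, and the gap was widest at the very top. Of the top 50 MED12 peaks by normalized tag count, 43 (86.0%, 73.8 to 93.0) had a MED1 peak. Of the top 50 MED1 peaks, 22 (44.0%, 31.2 to 57.7) had a MED12 peak. In the top 100 the percentages were 83.0% for MED12 and 58.0% (48.2 to 67.2) for MED1, and in the top 200 they were 69.0% and 61.0%, with overlapping intervals. Without peaks over 10 input tags, 66.0% (52.2 to 77.6) of the top 50 MED1 peaks and 88.0% (76.2 to 94.4) of the top 50 MED12 peaks were shared, and these intervals overlapped slightly. Ranked by total tags in place of the normalized tag count, all peaks included, the top 50 gave 48.0% and 88.0%.

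The normalized tag count is a signal that the peak caller scales to library size, and it is not the listed total of tags at the peak brought to a common depth. It moved in steps of 0.635 in the MED1 list and 0.665 in the MED12 list. The median MED1 peak had 9 such steps but 16 total tags, and at the highest MED1 peak, near Axin2, the total also exceeded its 137 steps. If a step is 1 tag on a scale of 10 M tags (M, megatags), the libraries held 15.7 M and 15 M tags. Over peaks the normalized tag count and total tags were correlated in both lists (Spearman's rho 0.72 and 0.74), so results that turn on single values are given on both scales. By decile of the MED12 list the shared percentage fell from 83.3% (75.2 to 89.2) in the first to 53.3%, 40.2% and 29.9% in the next 3, and lay between 10.3% and 16.8% in the remaining 6. By decile of the MED1 list it was 51.9% (41.0 to 62.7) in the first, 71.1% (60.0 to 80) in the second, and between 19.7% and 57.9% below. The intervals of the first deciles of both lists did not overlap.

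**Figure D1:**
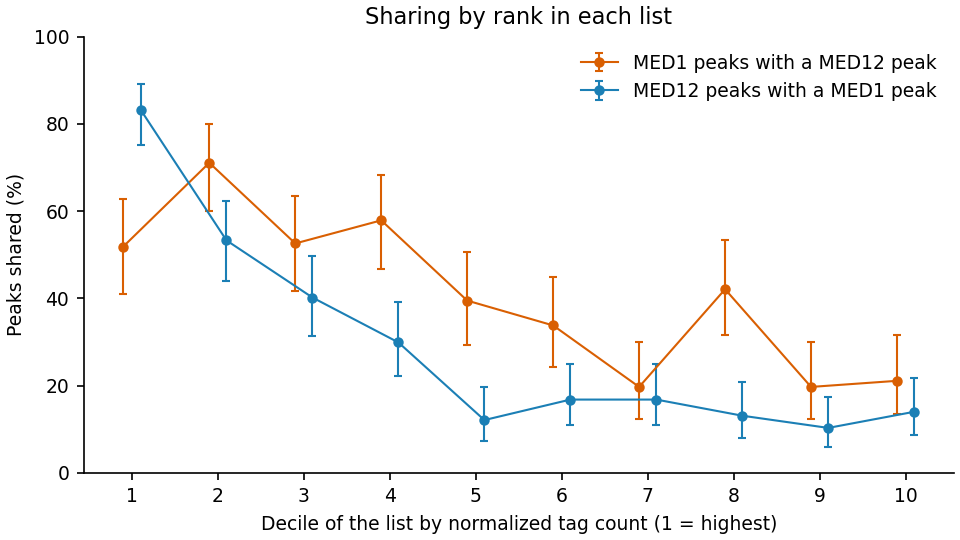
Percentage of peaks with a peak of the other subunit within 100 bp (y axis) by decile of each list, ordered by normalized tag count (x axis, 1 is the highest), for MED1 (orange) and MED12 (blue). Points are percentages and bars 95% Wilson intervals. Sharing was 83.3% in the first MED12 decile and 51.9% in the first MED1 decile, where 16 peaks had over 10 input tags.

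Shared peaks had more tags than single ones in both lists. The median normalized tag count of MED1 was 6.4 (quartiles 5.1 and 8.3) at 312 shared peaks and 5.1 (4.4 and 6.4) at 450 MED1-only peaks. For MED12 it was 8 (6 and 11.3) at 311 shared peaks and 6 (4.7 and 7.3) at 760 MED12-only peaks. The ratios of these medians were 1.25 and 1.33, and the quartile ranges overlapped in both lists. The peak caller's score, in tags, gave medians of 19 against 16 for MED1 and 25 against 17 for MED12, and total tags gave ratios of medians of 1.20 and 1.5. The highest MED1 values were nevertheless those of single peaks, which reached 87.1 against 19.7 at shared peaks. For MED12 the highest value was that of a shared peak, 31.9 against 19.3.

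Both lists began at the same floor. The lowest total was 14 tags in each, and 398 MED1 peaks (52.2%) and 458 MED12 peaks (42.8%) had 14 to 16 tags. Such peaks were 104 of the 312 shared MED1 peaks (33.3%, 28.3 to 38.7) and 294 of the 450 MED1-only peaks (65.3%, 60.8 to 69.6). In the MED12 list they were 46 of 311 shared peaks (14.8%, 11.3 to 19.2) and 412 of 760 single peaks (54.2%, 50.7 to 57.7). These peaks lay within 2 tags of the lowest total listed, and a partner just under that floor cannot be told apart from no partner.

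The 10 shared sites described next were chosen for high values of both subunits. Near Gm6994, a predicted gene, the site at chr14:77919428-77919653 (mm9) had a normalized tag count of 18.4 for MED1 and 25.3 for MED12. That site lies in the stretch of chromosome 14 described below. Its input tags were 8.3 and 7.1, against floors of 3.4 and 3.3, and its folds over the input 7.31 and 11. The site 7264 bp upstream of Jarid2, a partner of Polycomb repressive complex 2, had 17.2 for MED1 and 28.6 for MED12. The site at chr4:55488300-55488525, 56229 bp downstream of the start of Klf4, a reprogramming factor, had 17.2 and 27.9. MED12 was higher than MED1 at each of these 3.

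Of the other 7 in the first 10, the site 60964 bp downstream of the start of Manba, a lysosomal mannosidase gene, held the highest MED12 value of all, 31.9, with 16.5 for MED1. The site 40491 bp downstream of the start of Sall1, a zinc finger factor, had 29.3 for MED12 and 16.5 for MED1. The site 25589 bp upstream of Mkrn1, which encodes a ubiquitin ligase, had 23.9 and 14.6. The sites near Spen, a transcriptional corepressor, Rpap3, Etl4 and Tns3, which encodes a focal adhesion protein, had MED12 values from 18.6 to 22.6 and MED1 values from 13.3 to 17.2. All 10 carried NANOG, OCT4 and SIM2 peaks of clone A6.

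Across the 311 shared pairs MED12 had the higher normalized tag count in 232 and MED1 in 79. The median log2 ratio of MED12 to MED1 was 0.39 (quartiles -0.04 and 0.75), or 1.31 times. By total tags MED12 was higher in 240, MED1 in 53 and the median ratio was 1.26. By normalized tag count MED12 was at least 2 times MED1 in 40 pairs (12.9%), and MED1 at least 2 times MED12 in 9 (2.89%). By total tags these counts were 10 (3.22%) and 3 (0.965%), so most pairs past 2 times by normalized tag count were not past it by total tags. With a different antibody in each library and no replicate, subunit level and antibody yield cannot be told apart. Values of both subunits were correlated over the 311 pairs (Pearson's r of log2 values 0.50, Spearman's rho 0.45; by total tags 0.75 and 0.67), a description of 2 libraries that share cells, input and local chromatin. The median distance between the centres of both peaks was 49 bp (quartiles 20 and 116).

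**Figure D2:**
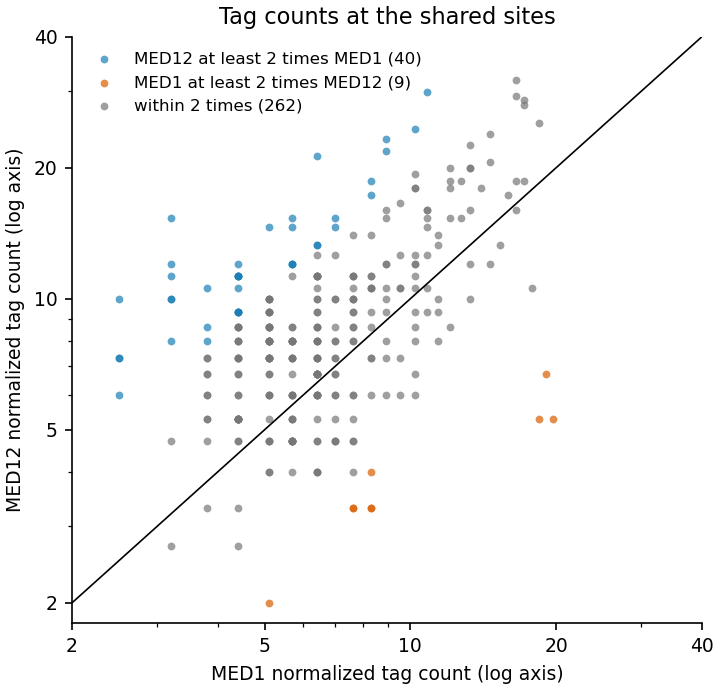
MED1 (x axis) against MED12 (y axis) normalized tag count at the 311 shared pairs, on log axes, 1 point per pair, with the line of equal values. Pairs with MED12 at least 2 times MED1 are blue (40) and pairs with MED1 at least 2 times MED12 orange (9). Most points lie above the line.

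The highest ratios of normalized tag counts were those of sites near Mllt6, Pfdn1 and Alg13. Near Mllt6, a chromatin protein gene, MED12 was 15.3 and MED1 3.2, and the site lay 866 bp upstream of the start. Near Pfdn1, a prefoldin subunit, the values were 10 and 2.5, and near Alg13, an enzyme subunit of N-glycosylation, 12 and 3.2. By total tags these differences were much smaller, 36 for MED12 against 20 for MED1 near Mllt6, 35 against 14 near Pfdn1 and 26 against 14 near Alg13. The lowest ratios were at 2 sites upstream of Kif2c, a mitotic kinesin, and at a site near Eapp. The Kif2c site at chr4:116883211-116883427 had 19.7 for MED1, the highest MED1 value of any shared peak, and 5.3 for MED12. The second Kif2c site had 19.1 and 6.7, and the Eapp site, 772 bp upstream of the start, had 18.4 and 5.3. Total tags at these sites were 49, 46 and 43 for MED1 and 18, 18 and 19 for MED12. The Eapp site was the only one of these 6 without a NANOG peak.

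The highest MED1-only peaks stood apart in the input. All of the 5 highest lay over regions with many input tags, against a floor of 3.4 in the MED1 list. The highest, at chr11:108873041-108873255 (mm9), was intergenic, 88653 bp downstream of the start of Axin2, which encodes an inhibitor of Wnt signalling. It had a normalized tag count of 87.1, 43.1 input tags and a fold of 5.82 over the input. The second was in an intron of Cdk8, the Mediator kinase, with 78.8 and 33.8 input tags. The third, in an intron of Filip1l, had 55.3 and 23.2 input tags. Those nearest to Samd9l and to Pxmp3, a peroxisome gene, had 47 and 40.7, with 28.3 and 27.8 input tags. None of the 5 carried a NANOG, OCT4 or SIM2 peak, and the nearest MED12 peaks were 128401 to 1575690 bp away.

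In all, 16 MED1 peaks had over 10 input tags. All 16 were MED1-only, 0 carried NANOG, and 13 were among the 20 highest of the MED1 list. Their fold over the input was 4.14 to 7.64, while the fold over the surrounding sequence reached 70.94. In the MED12 list a single peak had over 10 input tags, and 19 of its 20 highest peaks were shared, against 2 of 20 for MED1. Without peaks over 10 input tags the shared part of the MED1 list was 41.8% in place of 40.9%.

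**Figure D3:**
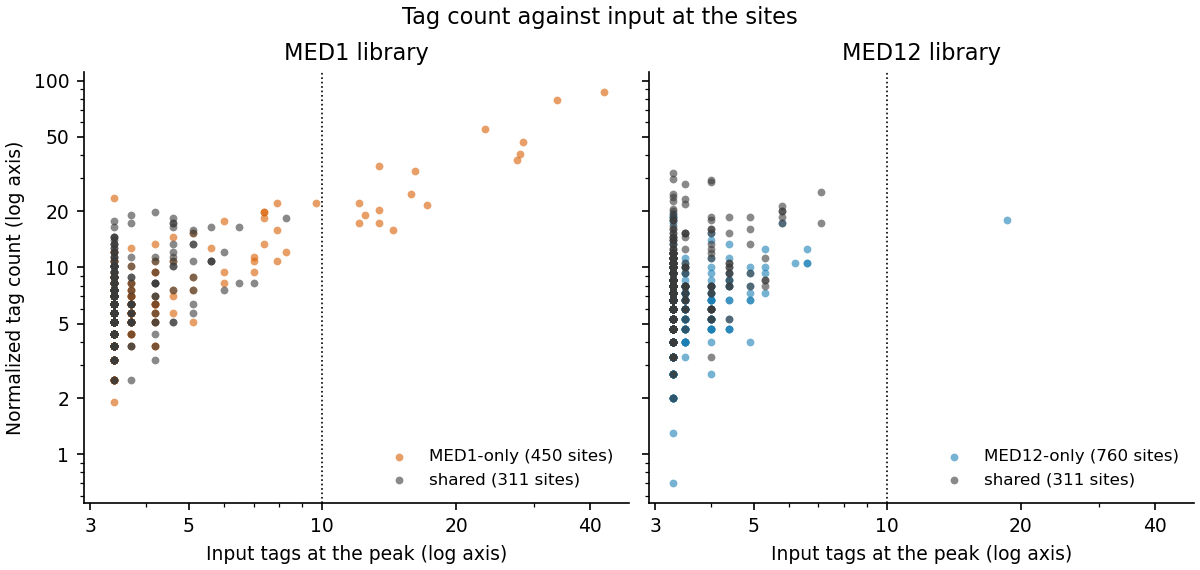
Normalized tag count (y axis) against input tags at the peak (x axis), both on log axes, for MED1 (left) and MED12 (right), 1 point per site. Grey points are shared and coloured points single-subunit sites, and the dotted line marks 10 input tags. The 16 MED1 sites to the right of the line are all MED1-only and include the highest value, 87.1.

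The highest MED12-only peaks lay in quiet input and near shared or MED1-only sites. The first, at chr3:34656837-34657053 (mm9), lay 107887 bp downstream of the start of Sox2, a core pluripotency factor. It had a normalized tag count of 19.3, an input at the floor of 3.3 and a fold of 13.42, and a MED1 peak lay 3108 bp away. The peak near Lekr1 had 18.6 with a MED1 peak 201 bp away, and that near Ssr2, an endoplasmic reticulum translocon subunit gene, had 17.3 with one at 561 bp. A peak 50032 bp upstream of Jarid2 also had 18.6, with a MED1 peak 1012 bp away. The peak nearest to Stmn2, with 18 and 18.6 input tags, was the exception, 1395653 bp from any MED1 peak. All 5 carried a NANOG peak and a SIM2 peak of clone A6.

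NANOG lay at nearly all shared sites, at most MED12-only sites and at few MED1-only sites. A NANOG peak was within 100 bp of 298 of 311 shared sites (95.8%, 93.0 to 97.5), 614 of 760 MED12-only sites (80.8%, 77.8 to 83.4) and 122 of 450 MED1-only sites (27.1%, 23.2 to 31.4). The difference of MED1-only from MED12-only sites was -53.7 percentage points (Newcombe interval -58.4 to -48.5), and that from shared sites -68.7 points (-73.0 to -63.6). OCT4 followed the same order, with 72.0% of shared, 49.9% of MED12-only and 13.1% of MED1-only sites. SIM2 of clone A6 was at 69.1%, 43.2% and 8.22%. Shared sites span 2 peaks and are somewhat longer, and counted by peak the NANOG share was 93.6% of the shared MED1 peaks and 95.2% of the shared MED12 peaks.

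The order was also found with SIM2 peaks of the other clones. For B8 the percentages of shared, MED12-only and MED1-only sites were 54.0%, 36.3% and 6.22%. For C4, a list of 631 peaks, they were 20.3%, 11.2% and 1.78%. None of the 1521 sites was within 100 bp of one of the 81 FLAG peaks of EB3. Taken from the other side, 911 of 14815 NANOG peaks (6.15%) had a MED12 peak and 413 (2.79%) a MED1 peak. Of the 2532 OCT4 peaks 23.7% had MED12 and 11.1% MED1, and of the 2387 SIM2 peaks of A6 22.7% and 10.3%.

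**Figure D4:**
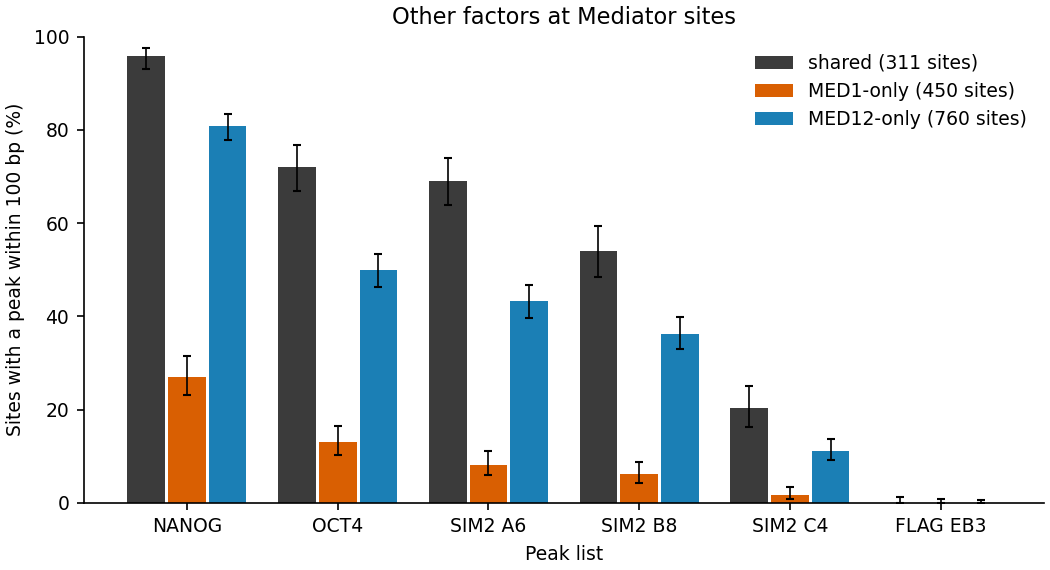
Percentage of sites with a peak of each list within 100 bp (y axis), for NANOG, OCT4, SIM2 in clones A6, B8 and C4 and FLAG in EB3 (x axis). Bars are 311 shared (grey), 450 MED1-only (orange) and 760 MED12-only (blue) sites, with 95% Wilson intervals. In each list but EB3, where all are 0, shared sites are highest and MED1-only sites lowest.

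The gap in NANOG was present at every level of MED1. Among MED1 peaks with a normalized tag count over 5 and up to 6, NANOG was at 69 of 73 shared peaks (94.5%, 86.7 to 97.8) and 50 of 164 MED1-only peaks (30.5%, 24.0 to 37.9). Over 6 and up to 7 it was at 96.8% and 38.9%, and over 10 at 53 of 59 (89.8%) and 7 of 42 (16.7%). These 42 included the 16 peaks with over 10 input tags, none of which carried NANOG. The intervals did not overlap in any of the 6 ranges. For MED12 the gap was smaller and did not narrow steadily with the tag count. Up to a count of 4 NANOG was at 17 of 17 shared and 87 of 122 single peaks (71.3%, 62.7 to 78.6). In the other 5 ranges the intervals overlapped, and over 10 NANOG was at 95 of 98 (96.9%) and 25 of 27 (92.6%). By total tags the MED12 gap was found at 14 to 16 tags, where NANOG was at 89.1% (77.0 to 95.3) of shared and 71.1% (66.6 to 75.3) of single peaks. At 17 to 19 tags it was at 89.6% and 90.9%. For MED1 the same ranges gave 94.2% against 22.4% and 91.2% against 45.8%.

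**Figure D5:**
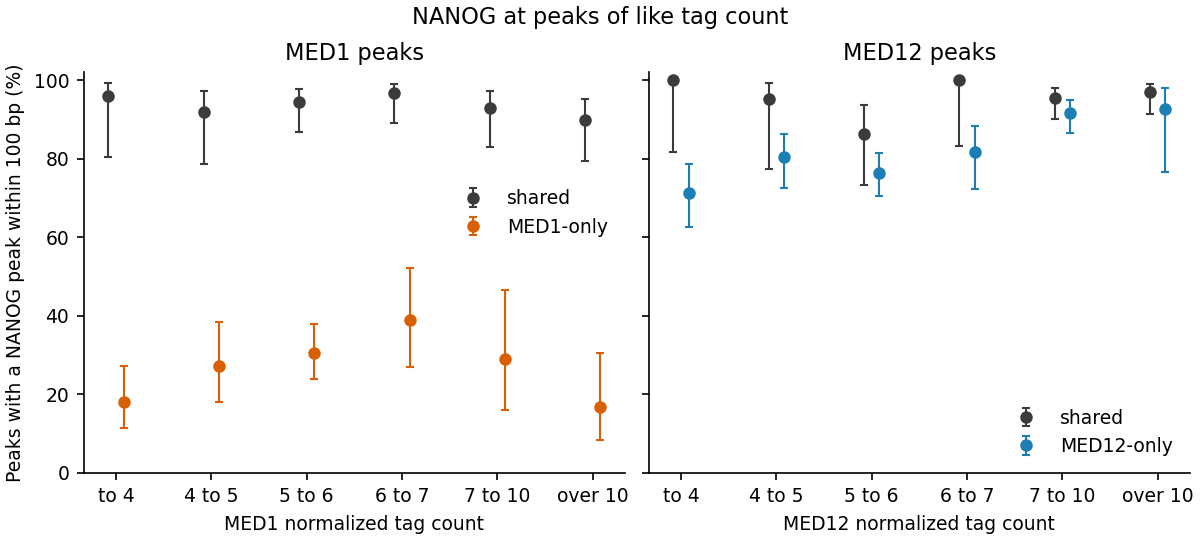
Percentage of MED1 peaks (left) and MED12 peaks (right) with a NANOG peak within 100 bp (y axis), by range of the peak's own normalized tag count (x axis). Grey points are shared and coloured points single-subunit peaks, with 95% Wilson intervals. MED1-only peaks stay between 16.7% and 38.9%, and MED12-only peaks between 71.3% and 92.6%.

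NANOG was also stronger where both subunits were found. The median normalized tag count of the NANOG peak was 17.8 (quartiles 12.4 and 24.8) at 298 shared sites, 13.9 (9.3 and 20.9) at 614 MED12-only sites and 9.7 (6.2 and 13.9) at 122 MED1-only sites, against 6.2 over all 14815 NANOG peaks. For OCT4 the medians were 7.3, 6 and 5.1 in that order, against 5.4 over its list. In shared pairs with NANOG the MED12 centre lay a median of 39 bp from the NANOG centre and the MED1 centre 56 bp. Among sites with NANOG, OCT4 was present at 74.5% of shared (69.3 to 79.1), 60.9% of MED12-only (57.0 to 64.7) and 43.4% of MED1-only sites (35.0 to 52.3).

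Single-subunit sites without NANOG were AT-rich, and many lay in one part of chromosome 14. There were 328 MED1-only and 146 MED12-only sites without NANOG, 45.7% of MED1 peaks and 15.0% of MED12 peaks being without it. The median GC content of the 200 bp was 32.8% at these MED1-only sites and 33% at these MED12-only sites. With NANOG it was 41.2% at MED1-only, 44.5% at MED12-only and 44% at shared sites. OCT4 was at 6 of the 328 and 5 of the 146.

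Between 70 and 110 Mb of chromosome 14, 1.51% of the genome, lay 83 of the 328 (25.3%, 20.9 to 30.3) and 40 of the 146 (27.4%, 20.8 to 35.1). Of all peaks this stretch held 13.0% for MED1 (10.8 to 15.6) and 5.98% for MED12 (4.71 to 7.56). The percentage was 2.74% for NANOG and 2.92% for OCT4. In the FLAG lists it was 2.14% for clone A6, 5.52% for B8, 12.4% for C4 and 7.41% for EB3 (6 of 81, 3.44 to 15.2). The copy number of this stretch in these clones was not tested, and a change in it would alter what these percentages mean. Chromosome 14 as a whole held 22.4% of MED1-only, 9.47% of MED12-only and 6.43% of shared sites and is 4.72% of the genome. Without the stretch, NANOG was at 32.5% of MED1-only, 85.0% of MED12-only and 96.3% of shared sites. The X chromosome held few sites of any class, 1.29% of the shared, 2.00% of the MED1-only and 0.92% of the MED12-only sites, against 6.28% of the genome. The X share of the NANOG, OCT4 and FLAG lists is not given here, so this is not shown to be particular to Mediator.

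The sites of every class were mainly distal. A promoter was the window from 1 kb upstream to 300 bp downstream of a protein-coding start. It held 13 of 311 shared sites (4.18%, 2.46 to 7.02), 26 of 450 MED1-only sites (5.78%, 3.97 to 8.33) and 29 of 760 MED12-only sites (3.82%, 2.67 to 5.43), against 2.92% of all NANOG peaks. The difference of MED1-only from MED12-only sites was 1.96 points (-0.457 to 4.76). Among sites with NANOG it was 5.76 points (1.49 to 12.3). Promoters there held 11 of 122 MED1-only sites (9.02%) and 20 of 614 MED12-only sites (3.26%). Among sites without NANOG the sign was opposite, at -1.59 points (-7.03 to 2.45), an interval that includes 0. Over all sites, with the starts of all genes of the annotation in place of protein-coding ones, the difference was 5.19 points (1.98 to 8.75). Intergenic sites were 70.1% of shared, 65.8% of MED1-only and 64.6% of MED12-only sites, and intronic sites 25.4%, 26.0% and 29.9%.

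Distances to genes also differed. A protein-coding start lay within 100 kb of 277 shared sites (89.1%, 85.1 to 92.1), 593 MED12-only sites (78.0%, 74.9 to 80.8) and 296 MED1-only sites (65.8%, 61.3 to 70). The median distance was 19732 bp at shared, 25759 bp at MED12-only and 34059 bp at MED1-only sites. It was 16943 bp at MED1-only sites with NANOG and 53157 bp at those without.

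Shared sites were clustered more than single ones. Another site of any class lay within about 13 kb of 127 of 311 shared sites (40.8%, 35.5 to 46.4), 112 of 450 MED1-only sites (24.9%, 21.1 to 29.1) and 141 of 760 MED12-only sites (18.6%, 15.9 to 21.5). Among sites with NANOG the difference of MED12-only from shared sites remained, at -21.9 points (-28.3 to -15.5), while that of MED1-only from shared sites was -8.97 points (-18.5 to 1.30), an interval that includes 0. Stitched at that distance, 380 sites formed 165 clusters, 89 of them with a shared site, and 36 clusters had 3 or more sites. A shared site was within the same distance of only 6.22% of MED1-only and 6.84% of MED12-only sites.

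The largest clusters held 6 sites and lay at Sox2 and Mkrn1. The Sox2 cluster, chr3:34634012-34660375 (mm9), lay 85062 to 111210 bp downstream of the start and had no shared site. Its 4 MED12-only sites had normalized tag counts of 4.7, 6.7, 17.3 and 19.3, and its 2 MED1-only sites 5.1 and 10.8, with NANOG at 5 of the 6. The Mkrn1 cluster spanned 34277 bp and had 2 shared, 2 MED1-only and 2 MED12-only sites. A MED1-only site of 7.6 at the Mkrn1 promoter, 425 bp upstream of the start, was its only site without NANOG.

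The Jarid2 cluster of 5 sites spanned 23889 bp upstream of that gene. Its shared sites had 13.3 and 17.2 for MED1 and 16 and 28.6 for MED12, while its promoter held MED12-only sites of 6.7 and 4. Of the 6 clusters with 4 sites, those with the strongest peaks by summed rank lay near AU018091, with 2 shared and 2 MED1-only sites that all carried NANOG, and in introns of Tet2, which encodes a DNA demethylation enzyme. The Tet2 shared site had 10.8 for MED1 and 14.6 for MED12. A MED1-only site of 5.7 and a MED12-only site of 8.6 in the same gene were close enough that a gap slightly over 100 bp kept them apart. The other 4 lay near Hist1h3d and Mreg, each with 4 MED1-only sites of which 1 carried NANOG, near Ctbp2, with 1 MED1-only and 3 MED12-only sites, and near 9630014M24Rik, with 1 shared site.

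Of the 22232 protein-coding genes 7.25% had any Mediator site within 50 kb of a start, 1.91% a shared site, 2.37% a MED1-only site and 4.15% a MED12-only site. Among 32 core pluripotency transcription factors and markers 23 had a site (71.9%), 16 a shared site (50%), 15 a MED12-only site (46.9%) and 4 a MED1-only site. At Klf5 the site at chr14:99738904-99739282 had 10.2 for MED1 and 24.6 for MED12, and a second site had 16.5 and 16. Both Klf5 sites lie between 70 and 110 Mb of chromosome 14. Zfp42, which encodes the ES cell marker REX1, had 13.3 and 20 at a site 13807 bp upstream. Esrrb, a nuclear receptor of the naive state, had 12.7 and 18.6 at an intronic site 31649 bp from the start. MED12 exceeded MED1 at these sites but for the second Klf5 site.

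The Nanog site, 4485 bp upstream, had 8.3 for MED1 and 10.6 for MED12, with OCT4 and SIM2 peaks but no NANOG peak within 100 bp. Sox2 had 6.4 and 9.3 at a shared site 3767 bp upstream. Tet1, which oxidises methylated cytosine, had shared sites of 12.1 and 11.4 for MED1 and 18 and 13.3 for MED12. Prdm14, a germ cell and naive pluripotency factor, had 10.8 and 16. Pou5f1, which encodes OCT4, had only a MED12-only site, of 4.7, 2012 bp upstream, and the same held for Klf2, Nr5a2, Dppa3, Dppa5a and Otx2. Tdgf1, a Nodal co-receptor, had a MED1-only site of 10.8 and a MED12-only site of 15.3, at 1041 and 1961 bp upstream of the start and 705 bp apart.

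Genes of 3 signalling pathways of ES cells had sites more often than the 7.25% of all genes, counted within 50 kb of a start. Their MED12-only sites numbered 5 against 1 MED1-only site for LIF and STAT3, 5 against 2 for Nodal and BMP, and 13 against 7 for FGF and ERK, where over all sites there were 1.69 MED12-only sites for each MED1-only site. In the LIF and STAT3 pathway 5 of 10 genes had a site (50%), but only 1 of 10 had one within 10 kb. Lifr and Il6st, the receptor subunits, had shared sites of 9.5 and 6.4 for MED1 and 7.3 and 8.6 for MED12, and the feedback inhibitor Socs3 had MED12-only sites of 5.3 and 4.7. In the Nodal and BMP pathway 9 of 18 genes had a site (50%) and 4 a shared one. Lefty1 and Lefty2 were counted through the same shared site and the same MED12-only site, and Tdgf1 was also in the pluripotency list. The inhibitor Lefty1 had 6.4 and 13.3, the inhibitor Smad7 had 8.9 and 15.3 at the stronger of 2 sites, and the ligand Bmp4 had 9.5 for MED1 and 6 for MED12. Among FGF and ERK genes 9 of 17 had a site (52.9%), all of them a MED12-only site. For Fgfr2 these were the 1 MED1-only and 3 MED12-only sites of the Ctbp2 cluster, named above by Ctbp2 as their nearest gene. The ligand Fgf4 had a MED12-only site of 6.7, and the inhibitor Spry2 shared sites of 15.3 and 10.2 for MED1 and 13.3 and 6 for MED12. The Spry2 sites also lie between 70 and 110 Mb of chromosome 14.

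Mediator subunit genes were near the background, with 4 of 33 (12.1%), namely Med4, Med16, Med23 and Cdk8, the last through the MED1-only peak with high input. Cohesin and its loading factors had 2 of 11 (18.2%), housekeeping genes 5 of 20 (25%) and ribosomal protein genes 5 of 79 (6.33%). None of 21 germ layer and lineage regulators had a site. Replication-dependent histone genes, which lie in dense arrays, had 57 of 67 (85.1%), but these rested on 15 sites on 2 chromosomes, of which 11 were MED1-only, 4 MED12-only and 0 shared. Their median normalized tag counts were 5.7 for MED1 and 5.3 for MED12, and the strongest, 9.5 for MED1, was near Hist1h3d.

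Most nearest genes belonged to a single class of sites. The shared sites had 254 nearest genes, the MED1-only sites 361 and the MED12-only sites 665, or 1.14%, 1.62% and 2.99% of the 22232 protein-coding genes. Shared and MED12-only sites had 74 in common (29.1% and 11.1% of each set), shared and MED1-only sites 40 (15.7% and 11.1%), and MED1-only and MED12-only sites 87 (24.1% and 13.1%). Each of these shares was above the set's share of all genes.

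Motifs were counted as exact matches on both strands in 200 bp around each centre, beside all 12791934 windows of that length in the genome. The ESRRB motif TCAAGGTCA was in 6.75% of shared (4.46 to 10.1), 4.22% of MED1-only (2.72 to 6.50) and 2.50% of MED12-only sites (1.61 to 3.87), against 0.421% of genome windows and 2.46% of NANOG peaks. Among MED1-only sites it was in 9.02% (5.11 to 15.4) of those with NANOG and 2.44% (1.24 to 4.74) of those without. The KLF motif CCACACCC was in 5.14% of shared, 1.33% of MED1-only and 3.03% of MED12-only sites, with 1.19% in the genome, and the STAT motif TTCCNGGAA in 2.89%, 0.667% and 1.58%, with 0.503%. The octamer ATGCAAAT was in 4.50%, 2.44% and 5.26%, with 1.73% in the genome and 6.95% in all NANOG peaks, which is above each class. Of all NANOG peaks 3.73% held the KLF motif and 1.33% the STAT motif. MED12-only sites without NANOG held the octamer in 1 of 146.

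The SOX motif CATTGTT was in 7.72%, 6.0% and 6.58% of the classes in that order (3.99% of the genome), the AP-1 motif TGACTCA in 5.79%, 4.22% and 3.29% (3.11%) and the SP motif GGGCGG in 4.18%, 3.33% and 4.08% (2.0%). The homeodomain core CCATTA was in 8.04%, 8.22% and 9.47% (8.65%), the TFCP2L1 motif CTGGTTT in 6.11%, 5.56% and 3.95% (4.37%) and the E-box CACGTG in 0.965%, 2.22% and 1.32% (1.95%). The CTCF core AGGGGGCG was in 3 MED12-only sites and no other. Apart from the ESRRB motif in shared against MED12-only sites and the KLF motif in shared against MED1-only sites, the intervals of the classes overlapped. Matches of these motifs can overlap one another, and a match is not evidence of binding. Whether matches lay in repeated elements was not tested, since no repeat annotation was used.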

How the data were processed

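For each library the authors aligned reads to mm9 (BWA), discarded duplicates, and ran HOMER at its defaults to find peaks over the input. Versions are not given in the sources used here, and the reads were not used. In the lists that the authors deposited, the normalized tag count is a signal scaled by HOMER to library size, and total tags are whole counts in the MED1 and MED12 lists. The deposited findPeaks score is given in tags, the focus ratio is a fraction, the fold over the input or the surrounding sequence is a ratio, and the p-value of each peak comes from HOMER; the last was not used.

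From these lists peaks were ranked by normalized tag count, MED1 and MED12 peaks with a gap of at most 100 bp were joined into sites, and each other list was set against the sites with the same gap. Starts, exons and transcripts were those of protein-coding genes in GENCODE vM1 on the mm9 assembly, and sequence was read from the same assembly. Differences of shares carry Newcombe intervals. Sites of a library are not replicates, each subunit had 1 library, and no p-value was computed. All 100% of the normalized tag counts in both lists fell on equal steps, within 0.051, and the depth given assumes that a step is 1 tag.

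Named sites were the 10 shared pairs with the lowest rank sum, the 5 highest MED1-only and MED12-only peaks, the 3 highest and 3 lowest ratios of MED12 to MED1, the 5 clusters with the most sites (ties by summed rank), and genes of 10 lists with a site within 50 kb. The members, lists and rules were chosen with earlier results of these data known. The list of lineage regulators and that of pluripotency factors each held 1 symbol not in the annotation. The software was bedtools 2.31.1, pysam 0.24.0, matplotlib 3.10.9, scipy 1.17.1, pandas 2.3.3 and numpy 2.4.6 under Python 3.11.15. The joining step was tested on simulated data and against bedtools. Alternatives for the gap, the fold over the input, the promoter, the cluster distance, the gene window and chromosome 14 were run. A further 4 were added after seeing the data. They left out chromosome 14 from 70 to 110 Mb, and left out peaks over 10 input tags. They also put means in place of medians, and total tags in place of the normalized tag count.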

Additional observations from a re-analysis of the deposited data

How the results depend on the processing

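Shared peaks were 29.8% of MED1 and 21.2% of MED12 with centres within 100 bp, and 45.3% and 33.0% with a gap of at most 1 kb. Among peaks at least 8 times the input in the list counted they were 78.8% (MED1, 41 of 52) and 82.7% (MED12, 115 of 139). With that limit in both lists they were 69.2% (36 of 52) and 25.9% (36 of 139), the same number of shared peaks over lists of different size. Without chromosome 14 the MED1 value was 45.6%, and without 70 to 110 Mb of it 45.2%, where NANOG was at 32.5% of MED1-only and 85.0% of MED12-only sites. Promoter shares of shared, MED1-only and MED12-only sites were 8.68%, 11.6% and 9.08% with a start within 2 kb and 7.72%, 11.1% and 5.92% with all genes of the annotation; at 8 times the input they were 3.33% (4 of 120), 9.09% (1 of 11) and 0% (0 of 24). Another site lay within 5 kb of 26.7%, 18.2% and 14.7% of the 3 classes, and within 25 kb of 47.6% of shared and 25% of MED12-only sites. With factors within 1 kb, NANOG was at 97.7%, 36.0% and 84.9%, OCT4 at 17.1% of MED1-only, and SIM2 of A6 at 13.3% of MED1-only and 47.5% of MED12-only sites. Counting only NANOG, OCT4 and SIM2 peaks of 8 times their input or more, NANOG was at 90%, 18.2% and 71.2%, OCT4 at 25.4%, 1.56% and 12.9%, and SIM2 of A6 at 42.1%, 3.33% and 19.6%. The cause of these shifts was not tested. The order shared, MED12-only, MED1-only held for NANOG, OCT4 and SIM2 of A6 in all 5 settings run. Other comparisons changed sign, which does not by itself show a reversal. As reported, 40.9% of MED1 peaks and 29.0% of MED12 peaks were shared. These percentages set nearly the same number of shared peaks, 312 and 311, against lists of 762 and 1071. At 8 times the input in the list counted the MED1 percentage was the lower one, from 41 of 52 against 115 of 139 peaks. The promoter difference of MED12-only from shared sites was -0.364 points (-3.43 to 1.99) as reported. With a start within 2 kb it was 0.397 points (-3.70 to 3.87), and both intervals include 0. The ratio of shared to single peaks, 1.25 for MED1 and 1.33 for MED12 in median normalized tag count, was 1.19 and 1.47 by score, 1.17 and 1.38 by fold over the input, 1.20 and 1.5 by total tags, and 1.07 and 1.57 with means.

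No paired analysis was possible because each Mediator ChIP had a single library and no replicate could be left out. Peaks near the floor of 14 tags limit what a missing partner means, and signal below the lists' thresholds was not analysed here.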
